A study of Mus musculus with 4 samples.

Results

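Ten-eleven translocation 1 (Tet1) oxidizes methylated cytosine in DNA. The genes described here encode 10 factors by which astrocytes shape synapses, namely Thbs1, Thbs2, Thbs3, Thbs4, Sparc, Sparcl1, Gpc4, Gpc6, Megf10 and Chrdl1. They were chosen by name, with earlier results of these data known, and all 10 were found among the 25393 genes listed in the deposited table. RNA-seq had been performed on primary astrocytes from cortex and hippocampus of untreated C57BL/6 pups at postnatal day 1, either wild type (2 WT libraries) or tet1-/- (2 libraries). The tet1-/- mice were a constitutive knockout, so the deletion was not limited to astrocytes. Each isolation pooled 2 pups, and the cells grew for about 7 days, were shaken at 260 rpm and were harvested 24 h later.

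Tet1 itself had 266 and 121 normalized counts in WT against 173 and 463 in the tet1-/- libraries. A normalized count is the number of reads on a gene divided by a size factor of the library. Because Tet1 was not lower in them, they are called the KO-labelled libraries, and each direction below rests on the label. The study itself reports hardly any Tet1 mRNA in its KO astrocytes, and less hydroxymethylated cytosine in their DNA. It does not tie those cells to the libraries used here. Which part of Tet1 was deleted is not given in the labels, and reads from outside it would check nothing. Reads on genes numbered 18749610 to 22673555 per library. The study describes its RNA-seq repeats as biological and gives more of them per genotype than the 2 libraries used here. The labels do not tie each library to a culture of its own. The KO-labelled libraries differed in Y-linked reads, as given below, so they were not repeats of the same RNA. The same holds for the WT libraries, with 2244 and 10333 reads on Sparcl1 and 4 and 173 on Ccnb1. Whether the spread behind the p-values is between separate cultures is not given in the labels.

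The astrocyte markers fixed for the check (10 genes, among them Gfap, Aldh1l1 and Slc1a3) were all detected. Their summed level was 1773 to 1901 FPKM in WT, and 3028 and 477 FPKM in KO-labelled replicates 1 and 2, with Gfap alone at 1871 and 117. Of the 10 astrocyte markers, 8 had a log2 fold change below 0 (median -0.73), 5 were lower without overlap (Slc1a3, Slc1a2, Aqp4, Sox9 and Aldh1l1) and 1 was higher without overlap (Gja1). Among all genes tested below, 25.4% were lower and 22.5% higher without overlap. FPKM here relates the reads on a gene to its length and to the reads on all genes of the library, and it is used wherever levels of different genes are compared. Some markers of other cells also moved with the label. The summed microglial markers (7 genes) were at 18.0 and 34.7 FPKM in WT against 2.35 and 1.10 in the KO-labelled libraries, and those of dividing cells (4 genes) at 1.59 and 7.31 against 17.3 and 34.7. The mural sum (4 of 5 genes listed) was 75.2 and 260 FPKM in WT against 582 and 1405 in the KO-labelled libraries, but this was the pattern of Acta2 alone, at 55.6 and 240 against 564 and 1395 FPKM. The other mural genes were not higher, with Pdgfrb at 19.2 and 19.6 against 18.5 and 9.03 FPKM and the pericyte genes Kcnj8 and Rgs5 below 0.5 FPKM in all 4 libraries, and the list had a median log2 fold change of -0.99. Meningeal fibroblast markers (6 genes) summed to 5.27 to 11.4 FPKM, endothelial markers (4 of 5 genes listed) to 0.173 to 1.11, and oligodendrocyte lineage markers (7 genes) to 153 to 370. Xist, the RNA that silences an X chromosome in female cells, had 8.54 and 0.920 normalized counts in WT against 2896 and 13367, and 4 Y-linked genes summed to 3765 and 1909 against 0 and 830, so that label and sex cannot be told apart in these libraries. In bulk RNA, fewer cells of a type and less RNA per cell cannot be told apart.

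Astrocytes release proteins that tell neurons where and when to build excitatory synapses. Thrombospondins bind the calcium channel subunit encoded by Cacna2d1 and start the formation of synapses that are normal in structure but silent. Hevin, the product of Sparcl1, bridges neurexin and neuroligin across the cleft, and its relative SPARC opposes it. Glypicans 4 and 6 bring AMPA receptors to the new synapse, and chordin-like 1 drives the switch to mature, calcium-impermeable AMPA receptors. Megf10 differs from the rest in being a membrane receptor, with which astrocytes engulf synapses and debris, and is thus not a secreted factor.

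Promoter windows from RefSeq (GRCm38.p6) were matched for 5 of the 10 genes. Shown are the 250 bases before the start site of 3 thrombospondin genes, since relatives of 1 family with different values can be compared. Thbs1 had no matched window. Thbs2 was lower in both KO-labelled libraries, Thbs3 was nearly level, and Thbs4 was hardly read at all. Each window is printed 5′ to 3′ in the direction of the gene, with CpG sites, the substrate of DNA methylation, in capitals. The windows lie at chr17:14694263-14694512 (minus strand), chr3:89214930-89215179 (plus strand) and chr13:92794819-92795068 (minus strand), and 0 of their bases fall in annotated exons.
Thbs2: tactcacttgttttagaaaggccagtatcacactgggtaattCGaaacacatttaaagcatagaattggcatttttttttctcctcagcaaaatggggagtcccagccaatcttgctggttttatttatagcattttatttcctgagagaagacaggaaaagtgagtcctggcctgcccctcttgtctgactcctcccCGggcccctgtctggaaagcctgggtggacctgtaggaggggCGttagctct
Thbs3: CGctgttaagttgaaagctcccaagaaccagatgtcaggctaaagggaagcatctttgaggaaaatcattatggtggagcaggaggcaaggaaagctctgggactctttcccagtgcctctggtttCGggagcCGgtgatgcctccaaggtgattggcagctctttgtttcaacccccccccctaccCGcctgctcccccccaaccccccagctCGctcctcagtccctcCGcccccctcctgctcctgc
Thbs4: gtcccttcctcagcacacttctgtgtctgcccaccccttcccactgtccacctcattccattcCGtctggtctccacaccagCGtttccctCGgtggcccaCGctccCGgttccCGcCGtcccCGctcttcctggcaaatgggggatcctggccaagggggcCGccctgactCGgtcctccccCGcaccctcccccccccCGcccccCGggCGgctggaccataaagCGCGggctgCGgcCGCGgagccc

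The 3 windows differed in CpG content. Thbs2 had 3 CpG sites and 46.8% GC, and 29.0% of the 32851 promoter windows of the same length held fewer sites. Thbs3 had 6 sites, the median of all windows, and Thbs4 had 19, more than 80.3% of the windows. Of the motifs searched on both strands, TATAAA and CCAAT occurred in Thbs2, CCAAT and GGGCGG in Thbs3, and GGGCGG in Thbs4, while TGACTCA and CACGTG occurred in none of the 3. Among all windows, 12.4% held TATAAA, 33.8% CCAAT, 32.7% GGGCGG, 4.46% TGACTCA and 6.02% CACGTG. The window of Gpc4, one of the more abundant of the 10, held 18 sites, close to the 19 of the hardly read Thbs4. However, all 250 bases of the Gpc4 window fall in annotated exons, so it is unlike the windows shown. Whether CpG content follows level was not tested.

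By level, the 10 genes spread over more than 4 orders of magnitude. Sparc ranked first in each of the 4 libraries, with 792 and 1208 FPKM in WT against 2396 and 1088 in the KO-labelled libraries, and alone made up 59.2% to 72.6% of the summed FPKM of the 10 genes. Thbs1, Gpc4 and Sparcl1 came next in 3 libraries, where Gpc4 was above Thbs1. In KO-labelled replicate 2, Gpc4 was below Thbs1, and Sparcl1 (25.9 FPKM) was level with Megf10 (26.3 FPKM). Megf10, Thbs3, Chrdl1 and Thbs2 lay close together in WT, at 9.77 to 27.3 FPKM, and changed places between the WT libraries, so their order is not resolved. Gpc6 was lower in WT, at 3.59 and 4.52 FPKM, and Thbs4 was at 0.134 FPKM or less in every library.

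**Figure D1:**
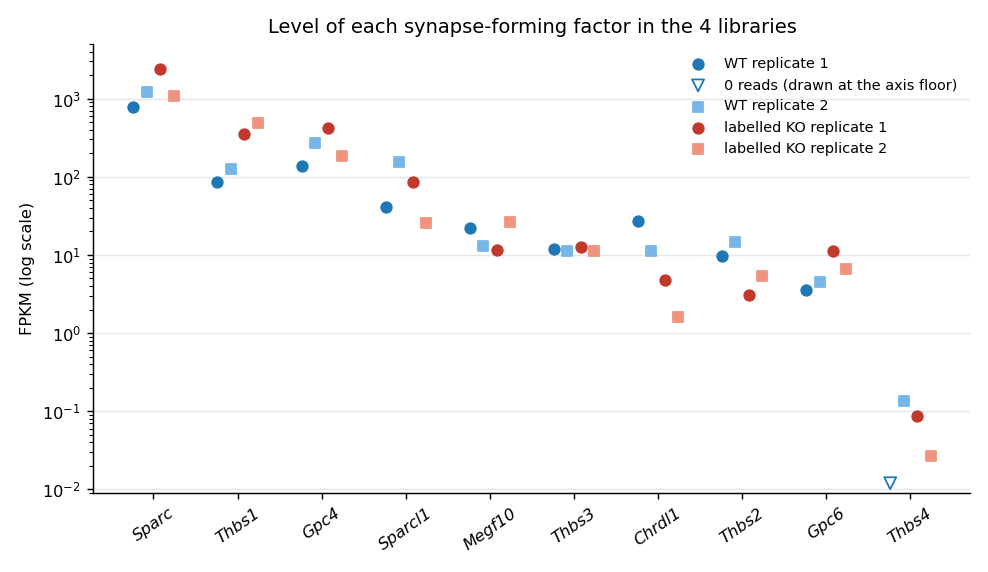
Level of the 10 genes as FPKM on a log axis, 1 point per library (blue, WT; red, KO label; circles, replicate 1; squares, replicate 2), ordered by mean level. Sparc lies at 792 to 2396 FPKM and Thbs4 at 0.134 FPKM or less; the red and blue points separate only for Thbs1, Chrdl1, Thbs2 and Gpc6.

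To ask whether these factors differ between WT and Tet1 KO astrocytes, limma was run on log2(normalized count + 1) for the 22094 genes whose mean was at least 1. All 10 genes passed this filter. Thbs1 and Gpc6 were higher in both KO-labelled libraries than in both WT libraries, and Thbs2 and Chrdl1 were lower, each with an unadjusted p under 0.05. Among all tested genes, 4.54% were higher and 9.18% lower at that threshold. After Benjamini-Hochberg adjustment over all tested genes, 0 of the 10 genes had an adjusted p under 0.05, as did 0% of all genes, although 1004 genes were higher and 2028 lower at an unadjusted p under 0.05. edgeR on the recovered reads also called 0 of the 10 at an adjusted p under 0.05, with the same 4 at an unadjusted p under 0.05. DESeq2 called Thbs1 higher and Chrdl1 lower at an adjusted p under 0.05, where 1.69% and 4.80% of all genes it tested were called in those directions. Groups without overlap were common in these libraries, at 22.5% of all tested genes in the higher direction and 25.4% in the lower, so 2 of 10 genes in each direction is no more than the background. Replicates of a label differed by a median of 0.30 log2 units in WT and 0.56 in the KO-labelled libraries across 12868 genes whose mean was 50 or more.

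**Figure D2:**
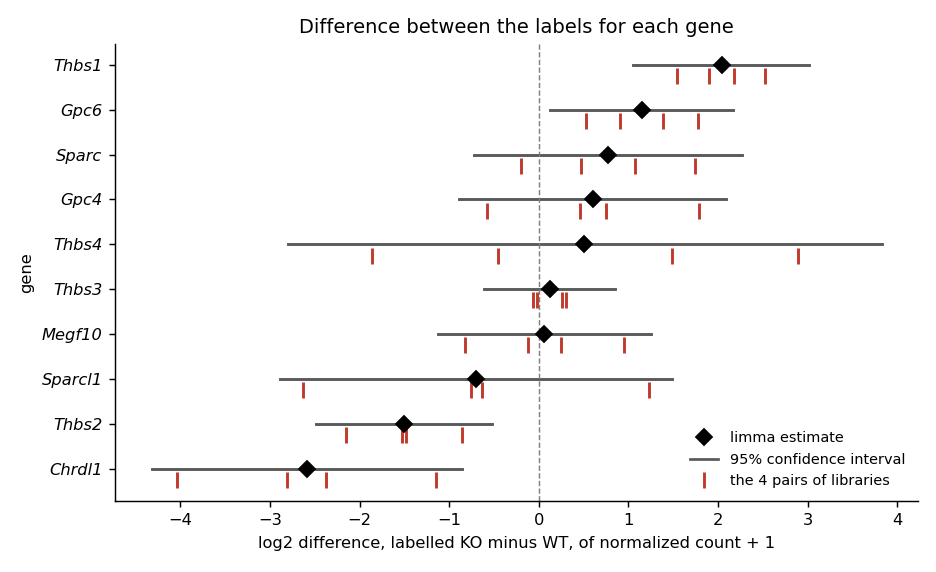
Log2 difference of the KO-labelled libraries minus WT, on the log2(normalized count + 1) scale, for each gene. Diamonds are limma estimates, lines 95% confidence intervals and red ticks the 4 pairs of a KO-labelled library with a WT library; all 4 ticks lie on 1 side of 0 for Thbs1, Gpc6, Thbs2 and Chrdl1, and on both sides for the other 6 genes.

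Thrombospondin 1 is a large secreted matrix glycoprotein that binds cell surface receptors and activates latent TGF-beta. Its gene, Thbs1 (ENSMUSG00000040152), occupies bases 118111876 to 118127133 of chromosome 2 (GRCm38, plus strand), and 208 of its exonic bases are shared with the noncoding gene Gm29233 on the opposite strand. Thbs1 had 10403 and 16053 normalized counts in WT against 46932 and 59784 in the KO-labelled libraries. Every KO-labelled library was above every WT library, and the gap between the groups was wider than the spread within either. The mean was 13228 ± 3995 (SD, n = 2) in WT against 53358 ± 9087 (SD, n = 2) in the KO-labelled libraries, a ratio of 4.03. The log2 fold change was 2.04 (standard error 0.39, 95% confidence interval 1.05 to 3.02), with an adjusted p of 0.169 from limma, 0.225 from edgeR and 0.000955 from DESeq2. It lay between 1.72 and 2.35 with any library left out, and over all alternatives the adjusted p ran from 0.000955 to 0.967. The level of Thbs1 ran in the same order over the 4 libraries as Acta2 and the dividing-cell sum given above, but not as the mural gene Pdgfrb. These were named here after their values were seen, and the share of all genes with that order was not computed. The part of these cell types in the Thbs1 difference was not tested.

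Thrombospondin 2 has the same domain layout as thrombospondin 1 and shares its synapse-inducing activity. Thbs2 (ENSMUSG00000023885, chromosome 17 from 14665500 to 14694235, minus strand) had 1369 and 2116 normalized counts in WT against 475 and 754 in the KO-labelled libraries. Both KO-labelled libraries lay below both WT libraries, in the direction opposite to Thbs1. The mean was 1742 ± 528 (SD, n = 2) in WT against 615 ± 197 (SD, n = 2) in the KO-labelled libraries. The log2 fold change was -1.51 (standard error 0.39, 95% confidence interval -2.49 to -0.52), with an adjusted p of 0.241 from limma, 0.234 from edgeR and 0.0541 from DESeq2 (0.0541 to 0.967 over all alternatives). It stayed between -1.84 and -1.17 with any library left out.

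Because these transcripts come from 1 library, their ratio does not depend on the size factors of the libraries. Per gene length, Thbs1 exceeded Thbs2 8.76 and 8.74 times in WT, and 114 and 91.3 times in the KO-labelled libraries. The WT libraries thus had nearly the same ratio although Thbs1 itself differed 1.54-fold between them. The log2 ratio was higher by 3.54 in the KO-labelled libraries (11.6-fold), and it stayed between 3.38 and 3.70 with any library left out. The exact permutation test gave a two-sided p of 0.333, the smallest that 2 libraries against 2 allow. Thbs1 made up 79.8% and 83.1% of the summed thrombospondin FPKM in WT, and 95.6% and 96.7% in the KO-labelled libraries, while the share of Thbs2 was 9.11% and 9.50% against 0.840% and 1.06%.

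Thrombospondins 3 and 4 belong to the subgroup of pentamers, whereas thrombospondins 1 and 2 are trimers. Thbs3 (ENSMUSG00000028047, chromosome 3 from 89215180 to 89226837, plus strand) had 1148 and 1114 normalized counts in WT against 1372 and 1101 in the KO-labelled libraries. The groups overlapped, and Thbs3 was the most even of the 10 genes, with the WT libraries 1.03-fold apart. Its log2 fold change was 0.12, with a 95% confidence interval from -0.61 to 0.85 (adjusted p = 0.883 from limma). Thbs3 shares 318 exonic bases with Mtx1 (394 to 519 normalized counts) on the opposite strand, and whether the counting used strand is not stated. Thbs4 (ENSMUSG00000021702, chromosome 13 from 92751590 to 92794818, minus strand), which is known mainly from muscle, tendon and nervous tissue, had 0 and 10 reads in WT and 6 and 2 reads in the KO-labelled libraries. With 3 reads as the floor of detection, it was above the floor in 1 library of each label, and no difference was detectable at this depth.

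**Figure D3:**
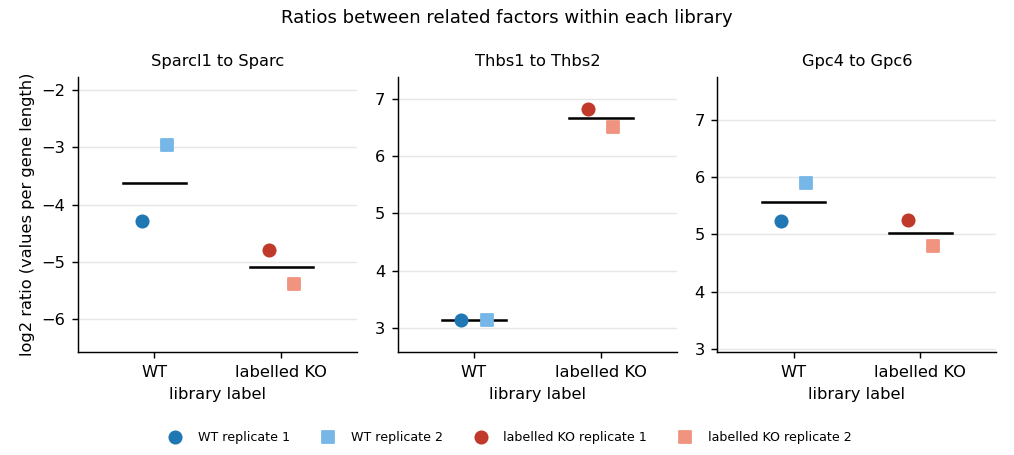
Log2 ratio of related factors within each library, per gene length, by label (circles, replicate 1; squares, replicate 2; black lines, means of 2 libraries). Every panel spans the same number of log2 units; the Thbs1 to Thbs2 ratio rests at 3.13 in both WT libraries and at 6.83 and 6.51 in the KO-labelled libraries, while the Gpc4 to Gpc6 ratios of the labels overlap.

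SPARC is a collagen-binding matricellular protein that counteracts hevin at synapses. Sparc (ENSMUSG00000018593, chromosome 11 from 55394500 to 55423183, minus strand) had 59985 and 95388 normalized counts in WT against 201090 and 83234 in the KO-labelled libraries. KO-labelled replicate 1 stood above all other libraries, while replicate 2 lay between the WT libraries. The limma fit gave a log2 fold change of 0.77 with a standard error of 0.59 (adjusted p = 0.607), and it was 0.14 without KO-labelled replicate 1.

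Sparcl1 (ENSMUSG00000029309, chromosome 5 from 104079111 to 104113733, minus strand), which encodes hevin, had 2394 and 9502 normalized counts in WT against 5607 and 1538 in the KO-labelled libraries. The WT libraries differed 3.97-fold and the KO-labelled ones 3.65-fold, so each label held a high and a low library. Its log2 fold change was -0.70 (standard error 0.87, 95% confidence interval -2.89 to 1.49, adjusted p = 0.755 from limma), and it turned to 0.29 without WT replicate 2 and to 0.23 without KO-labelled replicate 2. Of the 10 factors, Sparcl1 had the widest gap between the WT replicates apart from the hardly read Thbs4, and 98.2% of the 12868 genes above differed less.

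Within a library, Sparc exceeded Sparcl1 per gene length in all 4 cases. The ratio of Sparc to Sparcl1 was 19.4 and 7.78 in WT and 27.8 and 41.9 in the KO-labelled libraries. Both KO-labelled libraries lay above both WT libraries, although neither gene separated the labels alone. As Sparcl1 over Sparc, the log2 ratio was lower by a difference of -1.47 in the KO-labelled libraries (two-sided exact permutation p = 0.333, the smallest possible), with a range of -2.13 to -0.81 when a library was left out. The WT libraries were themselves apart, with log2 ratios of -4.28 and -2.96 (SD 0.93).

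Glypicans are heparan sulfate proteoglycans held at the membrane by a lipid anchor, from which they can be shed. Gpc4 (ENSMUSG00000031119, chromosome X from 52053021 to 52165252, minus strand) had 7226 and 14890 normalized counts in WT against 24967 and 9948 in the KO-labelled libraries. The groups overlapped, with KO-labelled replicate 1 the highest and WT replicate 1 the lowest. The limma fit gave a log2 fold change of 0.60 with a standard error of 0.59 (adjusted p = 0.686), and it was -0.06 without KO-labelled replicate 1. Gpc4 is X-linked, and the Xist and Y-linked values that move with the label are given above.

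Gpc6 (ENSMUSG00000058571) spans 1051 kb of chromosome 14, from 116925315 to 117976544 on the plus strand. Gpc6 had 462 and 605 normalized counts in WT against 1587 and 869 in the KO-labelled libraries. Both KO-labelled libraries exceeded both WT libraries, KO-labelled replicate 1 by the larger margin. The log2 fold change was 1.15 (standard error 0.40, 95% confidence interval 0.13 to 2.17), with an adjusted p of 0.333 from limma, 0.284 from edgeR and 0.192 from DESeq2 (0.192 to 0.967 over all alternatives). It ran from 0.72 without KO-labelled replicate 1 to 1.58 without KO-labelled replicate 2. Gpc4 remained the dominant glypican of the pair in all libraries, exceeding Gpc6 per gene length 37.8 and 59.5 times in WT and 38.1 and 27.7 times in the KO-labelled libraries. This ratio overlapped between the labels (log2 difference -0.55, two-sided exact permutation p = 0.667). Among all 6 glypican genes, Gpc4 held 83.0% to 94.2% of the summed FPKM.

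Chordin-like 1 is a secreted antagonist of bone morphogenetic proteins. Chrdl1 (ENSMUSG00000031283, chromosome X from 143285674 to 143394262, minus strand) had 3685 and 1567 normalized counts in WT against 708 and 223 in the KO-labelled libraries. Both KO-labelled libraries lay below both WT libraries, and within each label replicate 2 was the lower. The mean was 2626 ± 1498 (SD, n = 2) in WT against 465 ± 343 (SD, n = 2) in the KO-labelled libraries, so that WT exceeded the KO label 5.65-fold. The log2 fold change was -2.59 (standard error 0.69, 95% confidence interval -4.32 to -0.86), with an adjusted p of 0.247 from limma, 0.269 from edgeR and 0.0111 from DESeq2 (0.0111 to 0.967 over all alternatives). It ran from -3.43 without KO-labelled replicate 1 to -1.76 without KO-labelled replicate 2. Chrdl1, like Gpc4, is X-linked. The astrocyte glutamate transporter Slc1a2 had the same order over the libraries as Chrdl1, with 11394 and 5793 normalized counts in WT against 3078 and 597 in the KO-labelled libraries. Aqp4 shared that order, at 16135 and 11461 against 10259 and 3337 normalized counts. Sox9 did so too, at 11852 and 9440 against 6788 and 3362. The other astrocyte markers did not, among them Gfap with 58004 and 67297 against 174853 and 9945 normalized counts. The tally of the whole list is given above. The markers sharing the order were named after their values were seen, and the share of all genes with that order was not computed. The part of X linkage or of astrocyte markers in the difference was not tested.

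Megf10 (ENSMUSG00000024593, chromosome 18 from 57133090 to 57297467, plus strand), the engulfment receptor, had 3461 and 2126 normalized counts in WT against 1948 and 4106 in the KO-labelled libraries. The highest and the lowest library both carried the KO label. Its log2 fold change was 0.06, with a 95% confidence interval of -1.13 to 1.25 (adjusted p = 0.968 from limma), which leaves room for a change of more than 1 log2 unit in either direction.

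Receptors, relatives and partners of the 10 factors were examined as 6 lists with 57 genes, of which 56 were tested. The lists too were chosen with earlier results of these data known. At an unadjusted p under 0.05, 13 of them were higher and 9 lower with the KO label, where 4.54% and 9.18% of all tested genes were, and 0 had an adjusted p under 0.05 in limma or edgeR. DESeq2 called 9 higher and 5 lower at an adjusted p under 0.05, against 1.69% and 4.80% of all genes it tested. The named genes are those with an unadjusted p under 0.05 and the 2 of highest level in each list, and all p-values given for them come from DESeq2 or limma over all genes.

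Among the 10 thrombospondin receptors and partners, 1 was higher and 2 were lower, with a median log2 fold change of -0.68 against -0.07 for all tested genes. Itgb1, the integrin beta 1 chain, had 7411 and 9337 normalized counts in WT against 26486 and 32006 in the KO-labelled libraries, an adjusted p of 0.161 from limma and 0.00138 from DESeq2. It was thus higher together with Thbs1. Cd36, a scavenger receptor for thrombospondin 1 that macrophages and microglia also carry, had 155 and 684 normalized counts in WT against 1.07 and 19.8 in the KO-labelled libraries. The microglial sum moved in the same direction, and its part was not tested. Cacna2d3 was at 208 and 384 against 82.4 and 15.3 normalized counts. Cacna2d1, the receptor subunit described above and named here after its values were seen, had 177 and 116 normalized counts in WT against 225 and 662 in the KO-labelled libraries (adjusted p = 0.393 from limma). Lrp1, a large endocytic receptor that clears thrombospondins, had 37914 and 52628 against 31737 and 27195 normalized counts (adjusted p = 0.527 from limma).

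In the SPARC-related family, 1 of 6 genes was higher and 0 were lower, with a median log2 fold change of -0.35. Spock1, which encodes the proteoglycan testican-1, was close to the floor in WT with 4.27 and 0 normalized counts and had 302 and 172 in the KO-labelled libraries. Its adjusted p was 0.129 in limma and 2.46e-09 in DESeq2. Fstl1, the most abundant of the list, stayed within 157 to 217 FPKM (adjusted p = 0.545 from limma), and Spock2 had 3.52 to 7.83 FPKM.

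Of the 11 other glypicans and glypican partners, 4 were higher and 1 was lower (median 0.76). Nptx1, Nptx2 and Nptxr, the neuronal pentraxins and their receptor that cluster AMPA receptors, were all higher in both KO-labelled libraries. Nptxr had 246 and 229 normalized counts in WT against 537 and 1490 in the KO-labelled libraries, and Nptx1 6.40 and 14.7 against 50.3 and 463. Nptx2 had 0 and 3.68 against 11.8 and 140. DESeq2 called these 3 at an adjusted p under 0.05, whereas limma gave 0.264 to 0.314. The summed neuronal markers (6 genes), mostly Map2, were at 3510 and 1988 against 2573 and 3202 normalized counts, with Snap25 at 0 in both WT libraries. Of the 5 neuronal markers tested, 4 were higher without overlap (Tubb3, Syt1, Dcx and Rbfox3), as were 22.5% of all tested genes. Of these 4, 2 had an unadjusted p under 0.05 (Tubb3 and Dcx), and the list median was 1.80. Dcx and Rbfox3 rest on few reads, with 1 and 0 against 7 and 5 for Dcx, and 1 and 1 against 52 and 2 for Rbfox3. Tubb3 had 52.3 and 80.9 against 170 and 307 normalized counts, and the part of these markers in the pentraxin values was not tested. Gpc1 was higher at 695 and 1074 against 1470 and 3145 normalized counts, and Gpc2 lower at 66.2 and 61.6 against 11.8 and 29.7. The receptor phosphatases Ptprf and Ptprs, which bind glypicans, had 41.0 to 86.1 and 29.1 to 45.8 FPKM.

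Among the 9 phagocytosis partners of Megf10, 2 were higher and 3 lower (median -0.76). Gas6, the bridging ligand of Mertk and Axl, had 14060 and 24157 normalized counts in WT against 5062 and 1600 in the KO-labelled libraries (adjusted p = 0.214 from limma, 0.00456 from DESeq2). Its receptor Mertk was higher, at 116 and 92.9 against 231 and 411 normalized counts. Megf11, the closest relative of Megf10, had 68.3 and 76.3 normalized counts in WT against 197 and 971 in the KO-labelled libraries. The lipid transporters Abca1 and Abca7 were lower, at 19913 and 15551 against 10640 and 9198, and at 517 and 745 against 257 and 192 normalized counts.

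In the chordin family and BMP list, 8 of 9 genes were listed, 3 of them higher and 1 lower (median 0.55). Nog, which encodes the BMP antagonist noggin, had 192 and 249 normalized counts in WT against 1180 and 367 in the KO-labelled libraries. Its adjusted p was 0.358 in limma and 0.0840 in DESeq2. Nog was thus higher with the KO label and Chrdl1 lower, but both were lower in KO-labelled replicate 2 than in replicate 1. Bmp4 had 38.4 and 46.9 against 434 and 129, and Bmp7 had 191 and 373 against 126 and 90.1. Grem1 was at 1.07 and 0 in WT, under the floor, and at 3.21 and 37.9 in the KO-labelled libraries. Bmp6 had the highest level of the list, 117 and 155 FPKM in WT against 170 and 48.9 in the KO-labelled libraries (adjusted p = 0.771 from limma).

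Of 12 other astrocyte-secreted factors with effects on synapses, 2 were higher and 2 lower (median 0.22). Both of the higher genes encode matrix proteins found around synapses. Ncan, which encodes the proteoglycan neurocan, had 1154 and 3253 normalized counts in WT against 21215 and 15995 in the KO-labelled libraries (adjusted p = 0.147 from limma, 4.12e-05 from DESeq2). Tnc, which encodes tenascin C, had 9948 and 9698 against 27507 and 59841 (adjusted p = 0.206 from limma, 0.00242 from DESeq2). Wnt5a was lower at 2361 and 3264 against 870 and 670 normalized counts, and Tnf at 30.9 and 127 against 2.14 and 16.2. Tnf was under the floor in KO-labelled replicate 1, with 2 reads (adjusted p = 0.345 from limma, 0.0756 from DESeq2). The microglial sum moved in the same direction as Tnf, and its part was not tested. Apoe, the main lipid carrier that astrocytes secrete, had 3173 and 3680 FPKM in WT against 2652 and 494 in the KO-labelled libraries (adjusted p = 0.496 from limma).

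**Figure D4:**
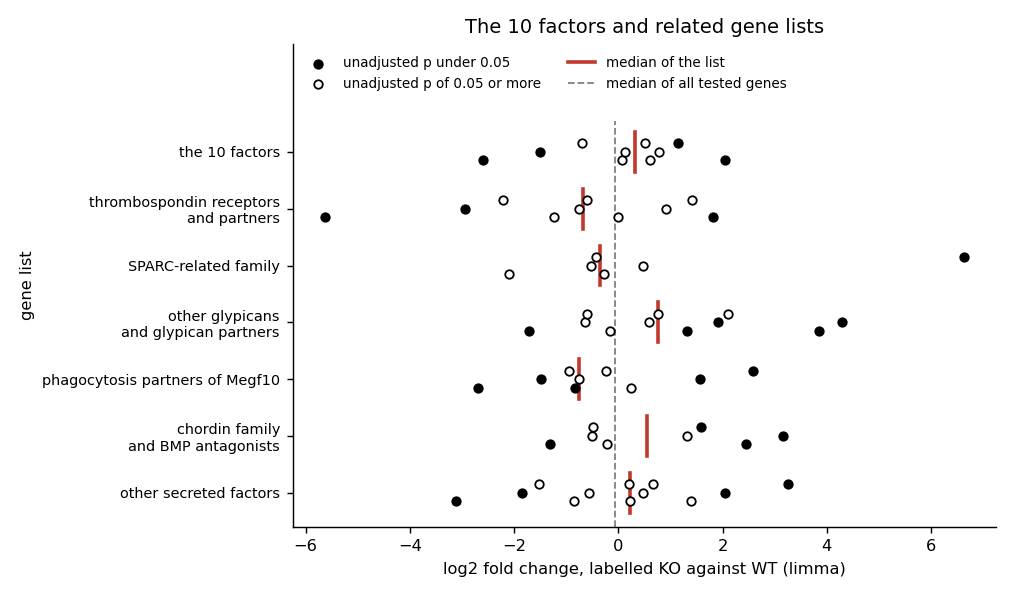
Log2 fold change of the KO-labelled libraries against WT (limma) for the 10 factors and the genes of 6 related lists, 1 point per gene; filled points had an unadjusted p under 0.05, red bars are list medians and the dashed line is the median of all tested genes at -0.07. Filled points lie on both sides of 0 in 6 of the 7 rows, and list medians run from -0.76 to 0.76.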

How the data were processed

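RNA-seq values of 4 libraries (2 WT, 2 labelled KO) were used. Per the methods and labels, the reads were paired-end, from an Illumina instrument, quality-filtered and mapped to mm10. The aligner, counter and annotation release are not given in the sources used here. The deposited table, named after FPKM, gives for every gene a normalized signal in each library. In each library 100% of these values were whole multiples (within 0.1) of the value of 1 read, so they are counts divided by a size factor (0.934 to 1.11), called normalized counts. The deposited columns of group means, fold changes and p-values were not used.

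Labels were compared with limma 3.58.1 in R 4.3.3 (eBayes with trend, two-sided, Benjamini-Hochberg) on log2(normalized count + 1), a scale that understates changes of low genes. edgeR 4.0.16 (quasi-likelihood) and DESeq2 1.42.0 used the recovered reads. FPKM was computed from reads, gene length and reads on genes. Scripts were tested on simulated counts. Gene spans matched GENCODE M21 (GRCm38) for 24668 of 25393 genes and for all 10 factors. The 10 factors, the lists and the alternatives were chosen with earlier results of these data known. Genes named in the lists are those with an unadjusted p under 0.05 and the 2 of highest mean FPKM. Ratios were compared by exact permutation tests.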

Additional observations from a re-analysis of the deposited data

How the results depend on the processing

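With 2 libraries per label, 1 library often decided a value. The number of factors at an unadjusted p under 0.05 was 4 and fell to between 1 and 3 when a library was left out, where 1 label then rests on a single library assumed to vary like the others. Thbs2 alone passed without WT replicate 1, Thbs1 alone without WT replicate 2, Thbs1 and Chrdl1 without KO-labelled replicate 1, and Thbs1, Thbs2 and Gpc6 without KO-labelled replicate 2. It was 3 with the replicate number as a block (replicate block) and with eBayes without trend, since Gpc6 no longer passed. Libraries of the same number deviated with a correlation of -0.08, so the number was not taken as a pairing. The count at an adjusted p under 0.05 was 0 in limma and edgeR and 2 in DESeq2, and the cause was not tested. Signs turned for genes with small differences: DESeq2 gave -0.18 for Thbs4, quantile normalization gave -0.06 for Megf10, and leaving out a library gave -0.04 to 0.28 for Thbs3, -1.16 to 2.19 for Thbs4, -1.69 to 0.29 for Sparcl1, -0.06 to 1.27 for Gpc4 and -0.48 to 0.60 for Megf10. Thbs1, Thbs2, Sparc, Gpc6 and Chrdl1 kept their sign under all 16 alternatives, and the 3 ratios under all 7. Quantile normalization moved the median of all genes from -0.07 to 0.08. Of 192 recomputed list counts, 147 stayed within 1.5 times, 37 were lower and 8 higher. Of the 10 factors, depth limited only Thbs4, with at most 10 reads. Several list genes also had few reads in a library, such as Spock1 with 4 and 0 in WT.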
